A study of Mus musculus with 3 samples.

Results

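Disallowed genes are expressed in most tissues but are kept at a very low level in mature pancreatic β-cells, where their products would interfere with insulin release. The deposited list of H3K4me1 enriched regions in cytokine treated mouse islets was examined at 9 of them, Ldha, Slc16a1, Acot7, Hk1, Hk2, Oat, Mgst1, Pdgfra and Igfbp4, which were taken by name from 22350 annotated protein-coding genes on chromosomes 1 to 19 and X. A region was counted for a gene if it overlapped the gene or had its nearest edge within 20 kb of any annotated transcriptional start site (TSS) of the gene. By this rule 23 of the 65709 regions belonged to the 9 genes, and each gene had between 1 and 4. A TSS was called covered if it lay inside a region, flanked if it did not but a region edge lay within 2 kb, and bare otherwise.

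The series compared islets cultured with and without cytokines. The library described here was made from islets of CD1 mice aged 8 to 12 weeks by the labels (ICR mice of 8 to 10 weeks, at least 10 of them, in the study's methods). They were cultured for 4 days with a mixture of IFNγ (1.6 ng/ml), TNFα (0.16 ng/ml) and IL-1β (0.25 ng/ml), used to imitate the inflammation of early type 1 diabetes. DNA of 4 ChIP experiments was pooled into 1 library, so there is no replicate and no value below has an error between samples. The list gives positions alone, on a grid of 200 bp, and holds neither read counts nor scores, so the depth behind a region is unknown and a missing region is only one that was not called. H3K4me1 of untreated islets and RNA levels were not analysed here. The word disallowed therefore names the genes and is not a measurement: which of them were silent in these islets, and which regions were present before treatment, cannot be read from the list. It holds fewer regions than the merged and filtered set of treated and untreated islets that the study describes, and the sources used here do not name the step it comes from. Islets also hold cells other than β-cells, and a region present in few cells cannot be told apart from weak enrichment in many.

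H3K4me1 is laid down at enhancers and around promoters, at both active and poised loci. At strongly transcribed promoters it usually lies as shoulders on both sides of the TSS, where H3K4me3 takes its place at the centre. In β-cells the rate of glycolysis follows blood glucose, and nearly all pyruvate passes to the mitochondria. The high-affinity hexokinases (Hk1 and Hk2) would keep glycolysis running at low glucose, and pyruvate would be diverted by lactate dehydrogenase A (Ldha) or taken up from blood by the monocarboxylate transporter MCT1 (Slc16a1). In people, promoter mutations that switch on SLC16A1 in β-cells cause insulin release during exercise.

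Start sites of 4 of the genes are printed as examples of sequences that H3K4me1 regions covered or passed by. Each sequence below is the mm9 reference from 180 bp upstream to 20 bp downstream of a TSS, on the strand of the gene, with CpG dinucleotides in capitals.
Slc16a1, only TSS, covered, chr3:104442411-104442610, plus strand: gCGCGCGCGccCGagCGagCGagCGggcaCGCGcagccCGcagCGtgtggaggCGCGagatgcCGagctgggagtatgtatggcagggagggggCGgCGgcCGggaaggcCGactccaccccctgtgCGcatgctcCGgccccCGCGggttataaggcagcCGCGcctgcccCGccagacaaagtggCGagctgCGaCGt
Ldha, first TSS, flanked, chr7:54096665-54096864, plus strand: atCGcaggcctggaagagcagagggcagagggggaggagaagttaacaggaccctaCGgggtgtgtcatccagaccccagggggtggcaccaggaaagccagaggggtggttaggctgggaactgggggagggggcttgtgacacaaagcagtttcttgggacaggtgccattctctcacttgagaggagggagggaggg
Ldha, TSS 4.36 kb further in, covered, chr7:54101029-54101228, plus strand: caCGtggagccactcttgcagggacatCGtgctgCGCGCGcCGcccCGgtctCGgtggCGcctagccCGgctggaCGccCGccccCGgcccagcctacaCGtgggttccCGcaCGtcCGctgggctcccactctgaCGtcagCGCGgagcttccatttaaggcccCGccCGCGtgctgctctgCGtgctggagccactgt
Hk1, first TSS, bare, chr10:61842637-61842836, minus strand: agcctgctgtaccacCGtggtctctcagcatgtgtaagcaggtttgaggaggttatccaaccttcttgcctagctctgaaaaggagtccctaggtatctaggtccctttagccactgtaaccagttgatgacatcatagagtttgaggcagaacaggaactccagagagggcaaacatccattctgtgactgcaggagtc
Hk1, TSS 37.2 kb further in, flanked on both sides, chr10:61805451-61805650, minus strand: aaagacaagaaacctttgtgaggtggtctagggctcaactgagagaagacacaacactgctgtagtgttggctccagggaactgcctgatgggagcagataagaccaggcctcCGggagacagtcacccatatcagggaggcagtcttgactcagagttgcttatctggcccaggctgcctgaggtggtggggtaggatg
Pdgfra, first TSS, covered, chr5:75548136-75548335, plus strand: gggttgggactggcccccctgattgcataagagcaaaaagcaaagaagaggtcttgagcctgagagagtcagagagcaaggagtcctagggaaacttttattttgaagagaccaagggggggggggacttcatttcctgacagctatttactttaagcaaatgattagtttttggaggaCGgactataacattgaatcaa
The printed covered start sites of Slc16a1 and Ldha held 29 and 24 CpG in these 200 bp. The first TSS of Ldha held 2, and the printed bare and flanked ones of Hk1 held 1 each. All bare start sites of Hk1 together ranged from 0 to 9. Pdgfra was covered although its window also held 1 CpG. The examples do not span the range of the 9 genes. Covered start sites held from 0 CpG (an internal TSS of Igfbp4) to 30 (the first TSS of Acot7). Bare ones held up to 9 (a TSS of Hk1).

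All 9 genes had at least 1 region, against 76.4% of all protein-coding genes (17066 of 22350). All 9 had at least 1 TSS covered, against 39.1% of all (8749 genes). The 95% exact binomial interval of that share, 38.5% to 39.8%, treats genes as independent draws. These are all annotated genes, however, and neighbours can share regions. The interval also leaves out the choice of settings, under which the share ran from 31.1% to 40.3%. The first TSS, the most upstream one of a gene, was covered in 7 of the 9 and in 31.1% of all genes (6952). The 2 exceptions were Ldha, whose first TSS was flanked, and Hk1, whose first TSS was bare. Genes with more annotated start sites more often had one covered: the share among all genes was 22.9% with 1 TSS, 44.0% with 2 to 4, 58.9% with 5 to 7 and 69.4% with 8 or more. The 9 genes had a median of 4 start sites against 2 over all genes. Slc16a1 and Oat had 1 each and both were covered. Over all 45 TSS positions of the 9 genes, 27 (60.0%) were covered, 7 were flanked and 11 bare, whereas 31.5% of the 70018 positions of all protein-coding genes were covered. Of the 11 bare positions, 8 belonged to Hk1. Start sites of one gene share regions, so these positions are not independent.

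**Figure D1:**
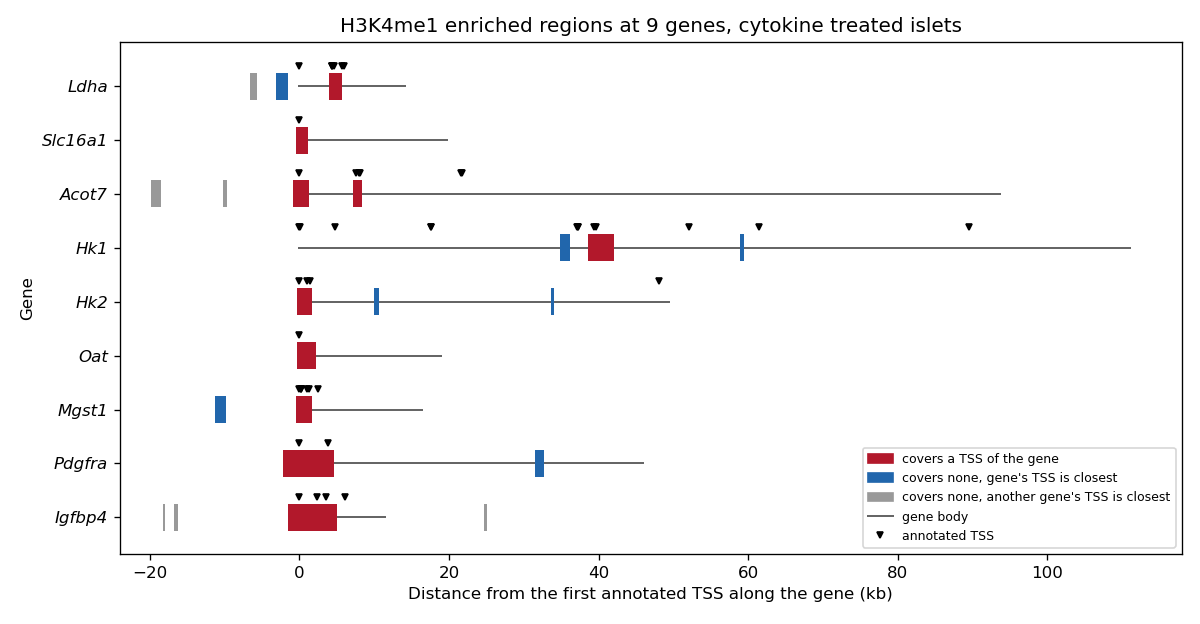
H3K4me1 enriched regions (boxes) along the 9 genes, by distance in kb from the first annotated TSS in the direction of transcription. Red boxes cover a TSS of the gene, blue and grey boxes cover none and lie closest to a TSS of the gene itself or of another protein-coding gene, grey lines are gene bodies and triangles are TSS positions. In 7 genes a red box lies over position 0, and in Ldha and Hk1 the red box lies further in.

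**Figure D2:**
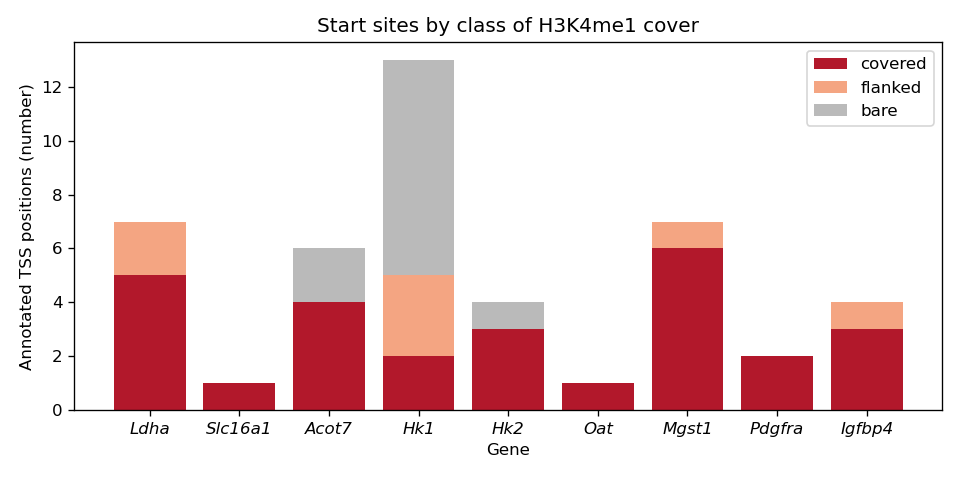
Number of annotated TSS positions of each gene that were covered by an H3K4me1 enriched region, flanked by one within 2 kb, or bare. Each bar starts at 0, and every gene has at least 1 covered position, while 8 of the 13 positions of Hk1 are bare.

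Glucose entry was represented by Hk1 and Hk2, which differed in where their regions lay. Hk2 spans 82675019 to 82724448 of chromosome 6 (mm9, minus strand). A region of 2.0 kb, 82722801 to 82724800, covered 3 of its 4 start sites and overlapped UTR and coding sequence. It reached 352 bp upstream and 1647 bp downstream of the first TSS. Its other 2 regions, of 600 and 400 bp, lay in introns 10.05 and 33.6 kb downstream, and the nearer one touched the annotated lincRNA Gm17034. The cover of Hk2 was thus one block over the start of the gene with narrow regions inside it.

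Hk1 (chromosome 10, minus strand, 61731603 to 61842656) has 13 annotated start sites spread over 89.6 kb, and is known to use alternative first exons, some of them in germ cells. The 5 most upstream positions were all bare, and the region nearest to the first was 30.9 kb away, on its upstream side. The 3 regions of the gene lay 34.9 to 59.5 kb downstream of it. The widest, 3.4 kb long and placed at 61800601 to 61804000, covered 2 start sites and overlapped UTR and coding sequence. Upstream of it lay an intronic region of 1.4 kb (61806401 to 61807800). Between both, 3 start sites at 61805447 to 61805470 were in neither region, 931 to 954 bp from the upstream region and 1447 to 1470 bp from the downstream one. Hk1 was the only one of the 9 genes with start sites flanked on both sides. Both regions also overlapped 2210417K05Rik, annotated as a processed transcript on the opposite strand. Because the window of 40 kb was centred on the first TSS, its covered share was 0% for Hk1. Centred on the flanked TSS at 61805470 it was 12.0%.

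Relatives of these enzymes were set beside them. Hk3 had 3 regions, no covered TSS and 8.0% covered. Hkdc1, which neighbours Hk1, had 3 regions, 1 covered TSS of 4 and 15% covered. Hk2 had 6.5% covered, and the windows of Hk1 ranged from 0% to 13.5% over its 13 start sites.

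Lactate metabolism was represented by Ldha and Slc16a1. Ldha (chromosome 7, plus strand, 54096845 to 54110997) had a region of 1.8 kb (54100801 to 54102600) that covered 5 of its 7 start sites and overlapped UTR but no coding sequence. A region of 1.6 kb ended 1445 bp upstream of the first TSS and flanked it on 1 side. The third region, of 1.0 kb and 5.65 kb upstream, lay closest to the predicted gene Gm5331. Downstream of the covering region no further region was found within the gene, and the next one began 69.3 kb from the closest Ldha TSS, near Tsg101. Slc16a1 (chromosome 3, plus strand, 104442591 to 104462385) had 1 region of 1.6 kb (104442201 to 104443800), which covered its single TSS, reached 390 bp upstream and 1209 bp downstream, and overlapped UTR. Just outside the limit of 20 kb, a region of 800 bp lay 22.0 kb upstream of it, and the next downstream was 35.8 kb away. Slc16a1 had 4.0% of its 40 kb covered, the lowest share of the 9 after Hk1, and 37.5% of all protein-coding genes had a lower one.

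Among their relatives, Ldhb had 4 regions, no covered TSS and 4.69% of its window covered, with its first TSS flanked. Ldhc, a germ cell form that lies near Ldha, had bare start sites, and the 1 region counted for it was the one that covered Ldha. Ldhd, which acts on D-lactate, had 5 regions, all 4 start sites covered and 24.7% covered. Of the other monocarboxylate transporters, Slc16a3 (MCT4, an exporter of lactate) had 6 regions and 7 of 8 start sites covered, although its first TSS was flanked. Slc16a7 (MCT2) had 1 region, over its first TSS, and 2.0% covered. Slc16a8 (MCT3) had 4 regions and 13.5% covered, and its only TSS was flanked.

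Acot7, Oat and Mgst1 encode enzymes of other pathways. Acot7, an acyl-CoA thioesterase (chromosome 4, plus strand, 151552243 to 151645964), was the only one of the 9 with separate regions over 2 groups of start sites. A region of 2.2 kb (151551401 to 151553600) covered the first TSS, and one of 1.2 kb (151559401 to 151560600) covered 3 internal ones 7.63 to 8.07 kb downstream. Both overlapped UTR and coding sequence. The remaining 2 start sites, 13.3 and 13.4 kb beyond the second region, were bare, and no further region lay in the 93.7 kb of the gene. The other 2 regions counted for Acot7 lay upstream and were closest to Hes2, and one of them, 18.4 kb from the first TSS of Acot7, covered a TSS of Hes2.

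Oat, ornithine aminotransferase of the mitochondrial matrix, spans 139749158 to 139768081 of chromosome 7 (minus strand). Its only region, of 2.6 kb (139765801 to 139768400), covered the single TSS and overlapped UTR. In this annotation the span of Fgfr2 (3009 kb) also includes the locus. The next regions lay just outside the limit, 22.7 kb upstream at the start of Nkx1-2 and 24.5 kb downstream. Mgst1, a glutathione transferase of membranes that protects against lipid peroxidation, spans 138088837 to 138105276 of chromosome 6 (plus strand). A region of 2.2 kb (138088401 to 138090600) covered 6 of its 7 start sites, and the seventh lay 775 bp past its end. A second region, of 1.4 kb, lay 9.84 kb upstream and overlapped no annotated gene. Like Slc16a1 and Hk2, Oat and Mgst1 therefore carried 1 region of moderate width at the start of the gene. Of related genes, Mgst2 had 5 regions with 1 of 9 start sites covered, and Mgst3 had 4 with its single TSS covered. Among the thioesterases Acot1, Acot8, Acot11 and Acot12 had a covered TSS and Acot2 and Acot9 had none.

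Pdgfra and Igfbp4 act in growth factor signalling and carried the widest cover. Pdgfra, the receptor α for platelet-derived growth factor and a marker of mesenchymal cells, spans 75548316 to 75594229 of chromosome 5 (plus strand). A region of 6.8 kb (75546201 to 75553000) covered both start sites and overlapped UTR, reaching 2115 bp upstream and 4684 bp downstream of the first. A second region, of 1.2 kb, lay in an intron 31.5 kb downstream. No other region lay within the 20 kb limit on the upstream side, and the next was 66.5 kb away towards Gsx2. Igfbp4, a secreted protein that binds insulin-like growth factors, spans 98902558 to 98913969 of chromosome 11 (plus strand). A region of 6.6 kb (98901001 to 98907600) covered 3 of its 4 start sites and 44.2% of the gene body with UTR and coding sequence. Its other 3 regions, of 200 to 600 bp, were closest to Top2a or Tns4, and 1 of these, 18.6 kb from the closest Igfbp4 TSS and inside Tns4, was the most distant region of the 9 genes that the limit of 20 kb let in. All 23 regions of the 9 genes added up to 41.8 kb, and those counted for Pdgfra (8.0 kb) and Igfbp4 (7.8 kb) had the largest totals.

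Among related receptors, Kit had 4 regions and 3 of 6 start sites covered, Csf1r had 1 region and bare start sites, and Pdgfrb had no region. Of the other insulin-like growth factor binding proteins, Igfbp2 (3 of 4 start sites) and Igfbp5 (2 of 2) were covered. Igfbp7 was flanked, and Igfbp1, Igfbp3 and Igfbp6 were bare. Igfbp5, with a region of 5.6 kb over its first TSS and 17.5% covered, was closest to Igfbp4 at 18.5%. Since Pdgfra marks mesenchymal cells, the other markers of these cells were counted. Of 8 mesenchymal markers, Col1a1, Col1a2 and Rgs5 had a covered TSS, Acta2 was flanked, and Pdgfrb, Col3a1, Dcn and Lum had no region at all. Their median covered share was 1.0%, and the highest was 12.5%. The part of mesenchymal cells in the regions of Pdgfra and Igfbp4 was not tested.

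The regions that covered a TSS of the 9 genes varied in width. These 10 regions were 1.2 to 6.8 kb wide with a median of 2200 bp, against a median of 2400 bp for the 9102 regions over any protein-coding TSS. The 13 regions over no TSS of the 9 genes were 200 to 1600 bp wide with a median of 600 bp. The median was 1200 bp for all regions over no protein-coding TSS. The sets are not defined alike, since 1 of the 13, upstream of Acot7, covered a TSS of Hes2. Of these 13, 6 were closest to the TSS of another gene. In each of the 7 genes with a covered first TSS, the region reached further downstream than upstream. The median reach was 436 bp upstream and 1763 bp downstream, and the medians over all 6952 such genes were 811 and 1480.5 bp, with 69.5% reaching further downstream. In 5 of the 7, Slc16a1, Acot7, Hk2, Oat and Mgst1, the upstream reach was 319 to 842 bp, while Igfbp4 (1557 bp) and Pdgfra (2115 bp) reached further.

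**Figure D3:**
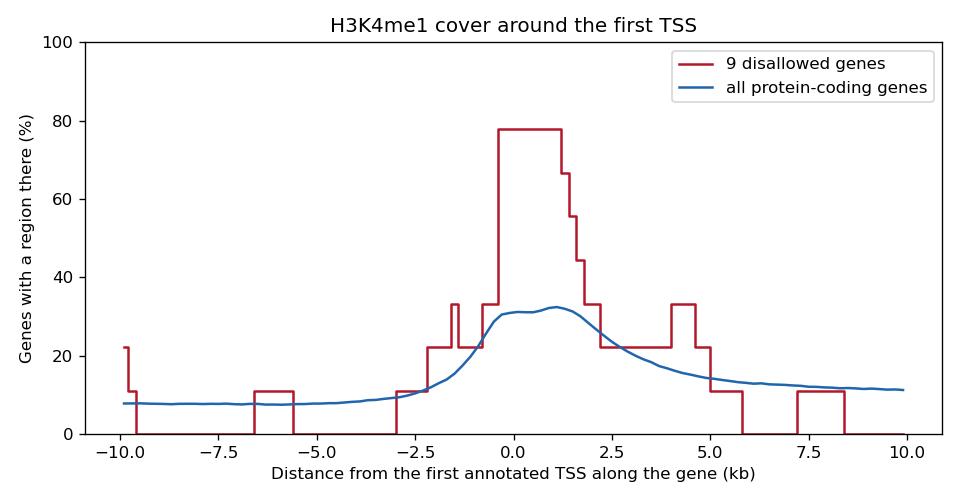
Share of genes in percent that have an H3K4me1 enriched region at each 200 bp step within 10 kb of the first annotated TSS, in the direction of transcription. The red steps are the 9 genes and the blue line all 22350 protein-coding genes; the 9 genes reach 77.8% between 0.4 kb upstream and 1.2 kb downstream, where all genes lie between 30.5% and 32.4%, and no gene of the 9 has a region between 3.1 and 5.5 kb upstream.

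The covered share of a window of equal length for every gene, 40 kb around the first TSS, put the 9 genes near the middle of the genome. Their median was 9.0% against 7.5% over all protein-coding genes and 14% over the genes with a covered TSS. The order was Igfbp4 (18.5%), Pdgfra (17.0%), Acot7 (13.5%), Ldha (11%), Mgst1 (9.0%), Hk2 and Oat (6.5% each), Slc16a1 (4.0%) and Hk1 (0%). With no replicate library, neighbours in this order cannot be separated. The highest of the 9, Igfbp4, had a larger share than 75.9% of all protein-coding genes. The number of regions gave a median of 3 for the 9 genes, 2 for all genes and 4 for genes with a covered TSS.

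Genes that β-cells need had wider cover than the 9, while their first TSS was covered at a share near that of all genes. A list of 12 included the hormone genes Ins1, Ins2 and Iapp, the transcription factors Pdx1, Mafa and Neurod1, and the channel subunits Abcc8 and Kcnj11. Of these 12, 6 (50%, against 39.1% of all protein-coding genes) had a covered TSS, 5 were flanked and Iapp was bare. Their first TSS was covered in 3 (25.0%, against 31.1% of all), flanked in 6 and bare in 3. Of these 3, G6pc2 had 3 of its 4 start sites covered. The 12 genes had a median of 5 regions and 45.0% of the window covered. Slc2a2 (56.1%), Abcc8 (52.5%) and Kcnj11 (51.5%), the glucose transporter and the subunits of the ATP-sensitive potassium channel, exceeded the highest of the 9 genes. Abcc8 and Kcnj11 are neighbours and share covered sequence. Only Ins2 (4.47%) and Ins1 (17.5%) of the 12 lay below the 18.5% of Igfbp4. In this annotation the first TSS of Ins2 belongs to a span of 20.9 kb and is bare, while 7 of its 8 start sites were covered.

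The glycolytic genes that act between hexokinase and lactate dehydrogenase, which β-cells use, had a median of 26.0% covered. Of these 13, 8 had a covered TSS, Pgk1, Pgam1, Eno1 and Pkm were flanked and Aldoc was bare. Pkm (annotated as Pkm2), pyruvate kinase, had 49.5% covered and Eno1 33.0%. The 13 genes for mitochondrial use of pyruvate and NADH had a median of 19%, with 8 covered, 4 flanked (Pdha1, Mpc2, Mdh2 and Slc25a12) and Pdhb bare. Pyruvate carboxylase (Pcx), the route by which β-cells refill the citric acid cycle, had 17 regions and 46.0% covered. The glycerol phosphate shuttle enzymes Gpd1 (56.1%) and Gpd2 (42.6%) and Pcx were the most widely covered of this list.

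A further 13 genes described as low or repressed in β-cells had a covered share near that of the 9 and of all protein-coding genes. Of the 13, 10 had a covered TSS, none was flanked, and Fcgrt, Zdhhc9 and Arap2 were bare. These 13 had a median of 5 start sites. A covered TSS was present in 39.1% of all protein-coding genes and in 58.9% of those with 5 to 7 start sites. The first TSS was covered in 9, Cxcl12, Maf, Smad3, Lmo4, Ndrg2, Tgm2, Parp3, Rest and Yap1, and bare in 4, among them Nfib. The median of the 13 was 2 regions and 7.0% of the window, against 2 and 7.5% over all protein-coding genes. Rest, the repressor of neuronal genes, had 2 regions, all 3 start sites covered and 7.0% of its window covered. Yap1, an effector of the Hippo pathway, had 1 region of 1.2 kb over 5 of its 7 start sites. Tgm2, a transglutaminase, had the highest share of the 13, 33.9%. Of the 26 relatives of the 9 genes, 14 had a covered TSS, 4 were flanked and 8 bare, with a median of 7.5% covered. These lists are described by counts and medians, no test of a difference between them was made, and the genes given by value from the lists of needed, glycolytic, mitochondrial, low or marker genes were singled out after their values were seen.

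**Figure D4:**
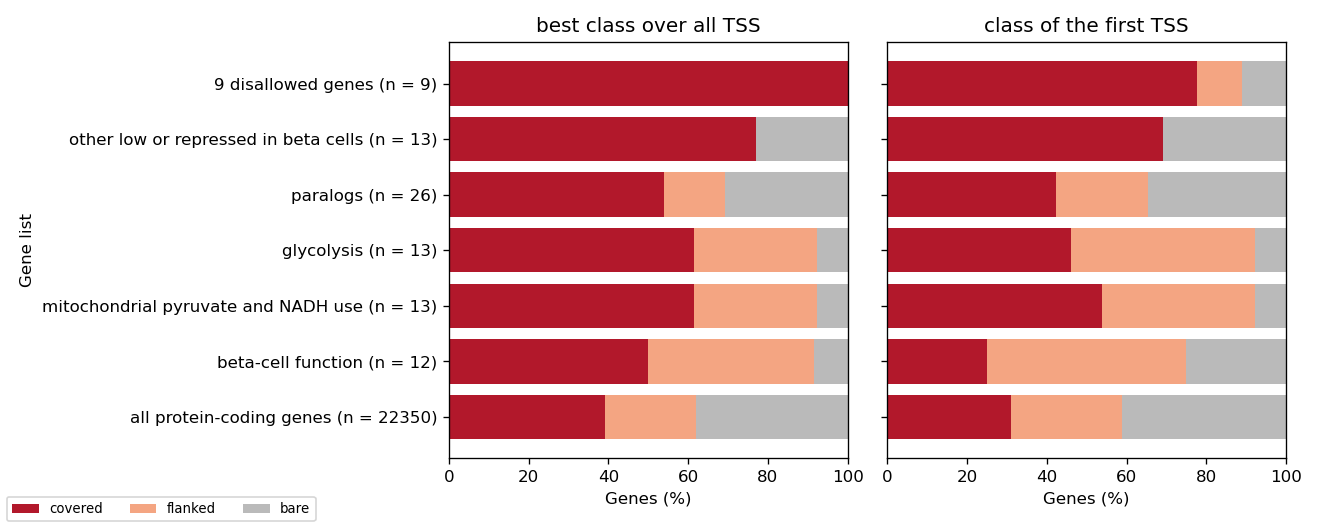
Share of genes in percent whose TSS were covered (dark red), flanked (light red) or bare (grey), on the left by the best class over all start sites of a gene and on the right for its first TSS. Rows are gene lists with their number of genes, and the first TSS is covered in 77.8% of the 9 disallowed genes, 25.0% of the β-cell function genes and 31.1% of all protein-coding genes.

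**Figure D5:**
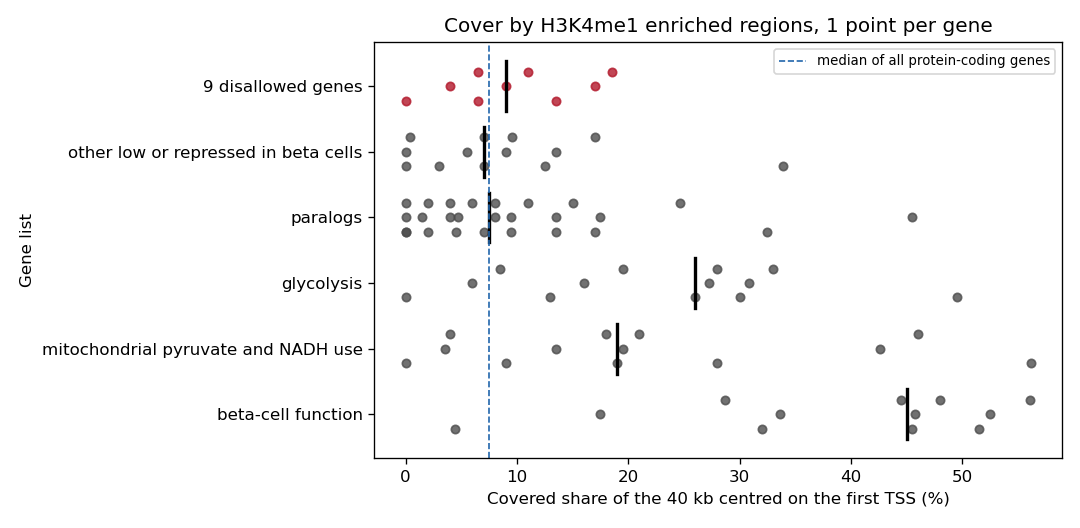
Covered share in percent of the 40 kb centred on the first TSS, with 1 point per gene, black bars at the median of each list and a dashed line at the median of all protein-coding genes (7.5%). The 9 disallowed genes lie between 0% and 18.5%, and the β-cell function genes have their median at 45.0%.

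The promoters of the 9 genes did not share one base composition. In the 300 bp from 250 bp upstream to 50 bp downstream of the first TSS, the ratio of observed to expected CpG was 0.7 or more in Slc16a1 (1.05), Acot7 (0.97), Oat (0.78), Hk2 (0.76) and Igfbp4 (0.72), and all 5 were covered. Over all genes with such a ratio, 42.9% had a covered first TSS, 46.0% a flanked and 11.04% a bare one. In the other 4 the ratio was under 0.4: Mgst1 (0.36), Pdgfra (0.22), Ldha (0.14) and Hk1 (0.05). Of these, Mgst1 and Pdgfra were covered, Ldha flanked and Hk1 bare, and over all genes with a ratio under 0.4 the first TSS was covered in 13.3% and bare in 75.7%. At the covered TSS of Ldha at 54101209 the ratio was 0.87, so that in this gene the CpG-rich start site was inside a region and the CpG-poor one outside. At the 3 start sites of Hk1 that lay between its regions the ratio was 0.06 to 0.11. Its bare start sites ranged from 0.05 to 0.61, and its covered ones had 0.68 and 0.53, so the ratio did not separate covered from bare in Hk1.

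The promoter windows at the first TSS were searched on both strands for motifs of the pathways that the cytokines use. The NF-κB motif GGANTTTCC was in none of the 9 windows and in 1.25% of all protein-coding genes' windows. GAAANNGAA, the interferon response element, was found at Oat (8.93% of all), and TGANTCA, bound by AP-1, at Pdgfra (6.93% of all). ACGTG, the core of the site bound by hypoxia-inducible factors, was found at Slc16a1, Hk2 and Oat (20.7% of all). These short words match by their letters alone. The window at the covered TSS of Ldha at 54101209, examined after its region was seen, held 5 matches to ACGTG at 3 places, since CACGTG counts on both strands. All 3 places are in the sequence printed above. That window held 31 CpG, and ACGTG itself holds a CpG, so the 20.7% of all windows is not a background of like composition. ACGTG was also found at other covered internal start sites of Ldha, Hk1, Hk2 and Igfbp4. It was found as well at the flanked Ldha TSS at 54102875 and the bare Hk1 TSS at 61753077. Matches to the NF-κB, AP-1 and interferon motifs also occurred at other start sites of the 9 genes. GGANTTTCC was found at 1 of the 45, the covered internal TSS of Acot7 at 151559874, whose window held TGANTCA as well. TGANTCA was further found at the 3 flanked start sites of Hk1, whose windows overlap, and GAAANNGAA at internal start sites of Ldha, Hk1 and Hk2.

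Markers of the cells that islets can hold were checked in the same list. Of 10 endocrine markers, 9 had a region and the median covered share was 25.3%, while Gcg, the glucagon gene of α-cells, had none. Of these, 1 was covered, 5 were flanked and 4 bare. Endothelial markers were covered in 3 of 5 and leukocyte markers in 1 of 6 (Cd68). Acinar markers were covered in 0 of 4 that are annotated under the listed names, and duct markers in 4 of 4. The duct markers had 49.4% (Krt19), 33.9% (Muc1), 11% (Sox9) and 6% (Cftr) of the window covered, with a median of 22.5%. The part of these cells in the regions of the 9 genes was not tested.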

How the data were processed

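Reads of the pooled H3K4me1 library were aligned by the authors to mm9 (Bowtie2 2.2.1 in the submitters' processing notes). They called enriched regions with ChromHMM, which assigns chromatin states to bins of the genome. The deposited file holds chromosome, start and end of each region, and 0 of 65709 regions were off a 200 bp grid. The list is shorter than the set the study made by merging the regions of treated and untreated islets and removing weak ones, and the step the file comes from is not named in the sources used here.

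Starts were raised by 1 so that positions count from 1, and genes, start sites and sequence were taken from GENCODE M1 and the genome of the same build. 0 regions passed a chromosome end. No test was made, since there is 1 library without scores. The 9 genes and all lists were chosen with earlier results of these data known. The rule for named genes took the 9 genes, their relatives by value, other lists by count, and neighbours that a region overlapped or had as closest TSS. The steps were checked on 900 simulated start sites, of which 900 received the right class. Python 3.11.15, numpy 2.4.6, scipy 1.17.1 and matplotlib 3.10.9 were used. Some items of the lists and motifs are not reported here.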

Additional observations from a re-analysis of the deposited data

How the results depend on the processing

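The 9 genes all had a covered TSS when regions under 400 or under 1000 bp were dropped, when gaps of up to 1000 bp were merged, with TSS of protein-coding transcripts and when a region had to reach 200 bp to both sides. With the first TSS alone, 7 were covered, 1 was flanked and 1 was bare. The share of all protein-coding genes with a covered TSS, 39.1%, was 35.7% without regions under 1000 bp, 40.3% with merged gaps, 36.2% with protein-coding transcripts, 31.1% with the first TSS alone and 34.5% with 200 bp on both sides; fewer or narrower targets lower it by construction. Of the numbers of regions per gene, 62 of 72 values stayed within 1.5 times. Igfbp4 fell from 4 regions to 1, and Acot7 from 4 to 2, when regions closest to another gene's TSS were left out. Hk2 and Igfbp4 kept 1 region of at least 1000 bp each. No paired analysis was possible because a single pooled library was sequenced, and none could be left out. The depth is unknown, so no missing region can be set against it.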

Other observations

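Beyond the 20 kb limit the 9 genes differed in what lay around them. Within 50 kb of a TSS, Slc16a1 had 5 regions in place of 1, Hk1 and Acot7 had 7 each, Oat and Mgst1 4 each in place of 1 and 2, Ldha and Hk2 4 each, and Pdgfra and Igfbp4 stayed at 2 and 4. The median rose to 4, and that of all protein-coding genes to 5. Some of the added regions belong to neighbours: the next one upstream of Hk1, 30.9 kb away, covered a TSS of Hkdc1, and the next upstream of Acot7, 23.8 kb away, a TSS of Espn. By contrast, the next regions on both sides of Slc16a1 and of Mgst1 had their closest protein-coding TSS at these genes.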
